A study of Homo sapiens with 2 samples.

Results

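The genes described here encode the nuclear subunits and assembly factors of respiratory complexes II, III, IV and V and the carrier cytochrome c. They were chosen by symbol, as those that begin with COX and a digit, UQCR, ATP5, SDHA, SDHB, SDHC, SDHD or SDHAF, together with CYC1 and CYCS. Earlier results of these data were known when the choice was made. A further 20 symbols that end in P and digits, the usual form of pseudogene names, were left out. This gave 59 of the 25556 genes in the table, spread over 21 chromosomes. The study compared 2 RNA immunoprecipitation sequencing (RIP-seq) libraries of wild-type Huh-7 cells, an established human liver cancer line. One holds RNA that came down with an antibody (the IP), the other RNA of the lysate before precipitation (the input). No treatment of either is described besides the treatment label of the IP given next. The series' design text describes an IP of the splicing factor SRSF7 from 90% of a lysate with 10% kept as input, the IP is labelled with the treatment SPSF7 Q16629, and the sample protocol describes an anti-YTHDF2 IP of poly(A) RNA. The libraries are therefore called by their labels, and no value below shows which protein was precipitated.

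Oxidative phosphorylation takes place in the inner mitochondrial membrane. Complex II passes electrons from succinate to ubiquinone, complex III passes them on to cytochrome c, complex IV (cytochrome c oxidase) hands them to oxygen, and complex V (ATP synthase) uses the proton gradient to make ATP. Most subunits of these complexes are encoded in the nucleus, translated in the cytosol or at the mitochondrial surface and imported, and many are small proteins with short mRNAs. Hepatocytes are rich in mitochondria, whereas many liver cancer lines also rely on glycolysis.

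Gene-assigned reads numbered 5897293 in the IP and 2782045 in the input, of which 22230 and 15192 fell in the 59 genes. Their median was 177 reads in the IP (0 to 2701) and 114 in the input (0 to 1993), and the deposited values are RPKM, reads divided by merged exon length and by the library's assigned reads. With 1 library per group there is no replicate, so no p-value is given. Intervals are exact 95% intervals of the ratio of reads and cover counting error only. Among all genes with 1 to 10 reads, 78.5% of IP counts and 78.1% of input counts were even numbers. Reads thus tended to come in pairs, the intervals are too narrow, and intervals from halved reads are given where they change a statement. The 8 hepatocyte markers were all measured (sums of 5706 and 6712 RPKM in the IP and the input). Of these, 4 were lower in the IP, among them AFP (1613 and 2814 RPKM) and ALB (655 and 944 RPKM). The other 4 were higher, among them APOB (437 and 342 RPKM) and HNF4A (51.2 and 26.4 RPKM). The erythroid markers HBB, HBA1, HBA2 and ALAS2 summed to 694 and 1052 RPKM, with 4 of 4 lower in the IP, and 3 of the 4 muscle and heart markers were measured, all lower, with a sum over the list of 17.1 and 29.0 RPKM and MB at 0 input reads. Of the 4 immune markers 3 were lower, with sums of 17.7 and 24.3 RPKM, and the endothelial and fibroblast markers listed summed to at most 3.76 RPKM, with CDH5 at 0 input reads. The part of such RNA in the results below was not tested.

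Most of the 59 mRNAs were represented less in the IP than the typical gene. Differences are given as log2((IP + 1)/(input + 1)) on RPKM for genes that averaged 1 RPKM or more over IP and input, which held for 57 of the 59; COX18 and ATP5MGL did not. The median of these 57 was -0.63 (quartiles -1.01 and -0.14), against 0.14 for all 14057 genes that passed the same filter. Of the 57, 50 lay below the median of all genes as deposited and when each library was scaled to its protein-coding reads, and 47 did when both were scaled to the same sum of RPKM values. Scaling multiplies all values of a library by the same factor. A gene's place against that median can then shift only through the added 1 RPKM, so the 50 and 47 are no check on the scaling. On the deposited scale 46 values were below 0 and 11 above. At least 2-fold lower in the IP were 15 of the 57, where 8.25% of all genes were that low, and at least 2-fold higher were 2, where 11.3% of all genes were that high. These counts depend on the scaling: scaled to protein-coding reads they were 28 and 1 (15.1% and 6.32% of all genes), and with equal RPKM sums they were 2 and 17 (3.23% and 61.8%), a scaling that moved the median of all genes to 1.24. If each read counts as independent, the interval of the ratio lay below 1 for 35 of the 57 (18.6% of all genes) and above 1 for 7 (31.4% of all genes). From halved reads these numbers were 27 and 4, and over all 14057 genes 1799 and 3340.

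**Figure D1:**
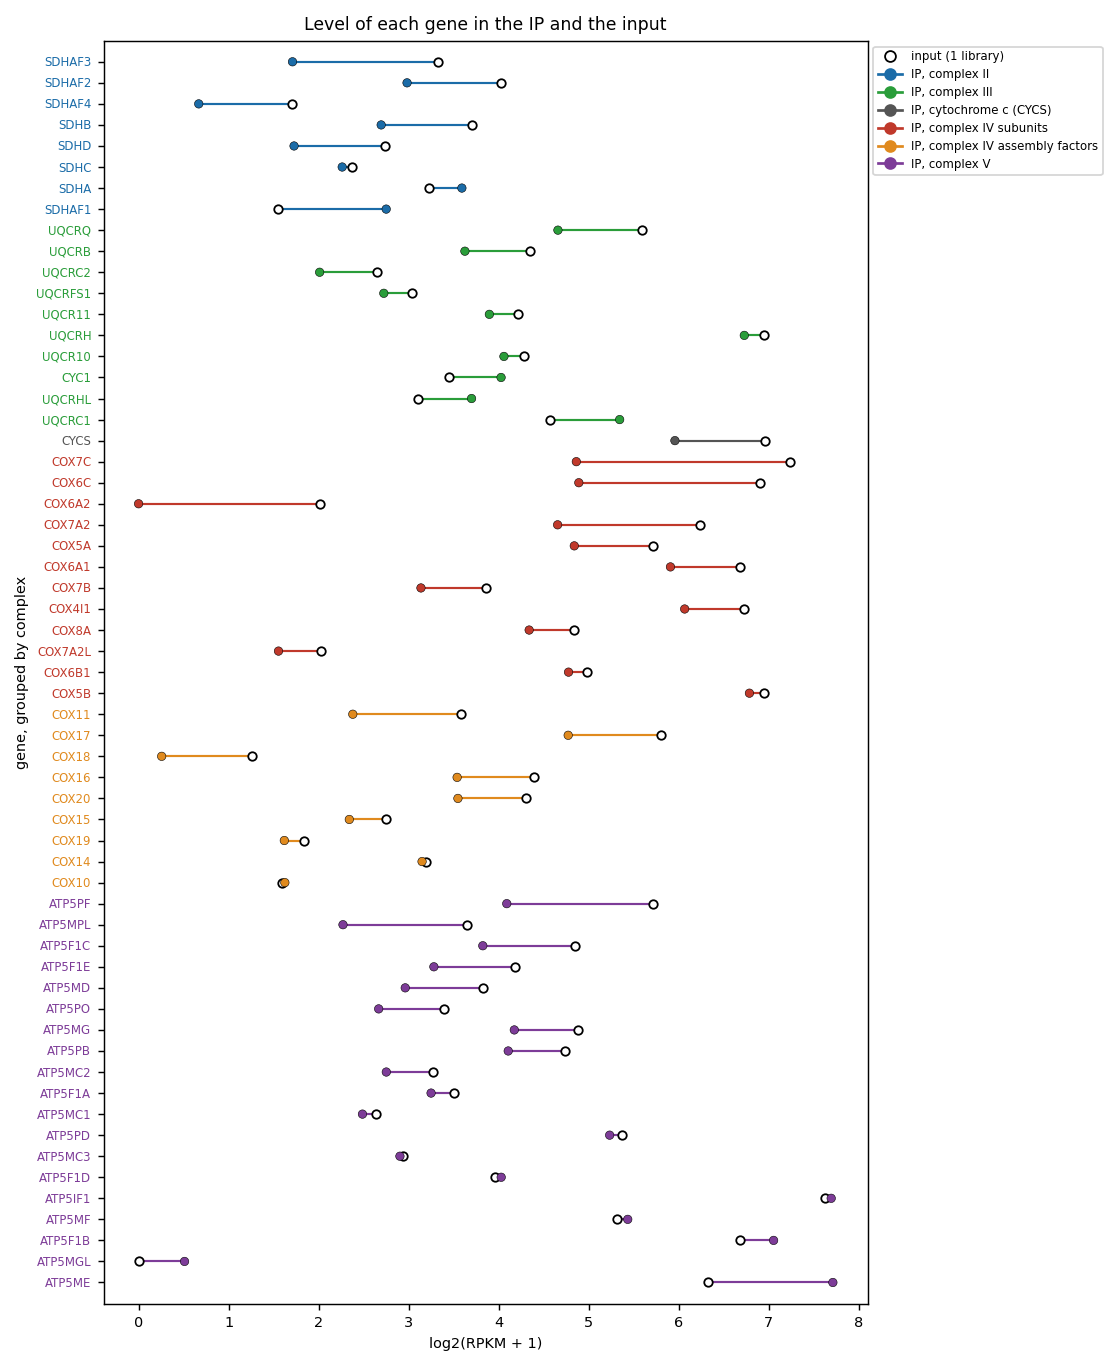
Level of each of the 59 genes as log2(RPKM + 1) in the IP (filled, coloured by complex) and in the input (open), 1 library each, sorted within each complex by the difference. In most rows the filled point lies to the left of the open one; SDHAF1, UQCRC1 and ATP5ME are among those where it lies to the right, and with both libraries scaled to the same RPKM sum most would lie to the right.

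Promoters were examined because many of these genes are described as targets of NRF1 and of ETS-family factors such as GABPA, which coordinate nuclear respiratory genes. The RefSeq table (GRCh38.p14; 250 bases before to 50 after each start) matched 46 of the 59 genes by symbol. An NRF1 motif, searched as GCATGCGC on both strands, was found in 12 of the 46, in 4.89% of 15843 protein-coding genes and in 3.68% of all 27305 symbols. The ETS motif CCGGAAG was found in 21 of the 46 and in 16.5% of protein-coding genes, the YY1 motif AAGATGGCG in 4 and 3.21%, and the GC box GGGCGG in 30 and 64.3%. All were searched on both strands, over every annotated start of a gene in the table, and a match is a description and not a bound site. A start of C followed by 4 or more pyrimidines, as in mRNAs with a pyrimidine-rich 5′ end, was annotated for 8 of the 46, among them COX7C, COX4I1 and ATP5F1E, and for 6.24% of protein-coding genes. The 11 measured genes with the NRF1 motif had a median log2 ratio of -1.01 and the 34 without it -0.49, whereas with and without the ETS motif the medians were -0.66 and -0.63. These splits were made after the ratios were seen, and ATP5ME, which has the motif, had the highest log2 ratio on RPKM + 1.

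The 120 bases before the start are shown for the 4 genes in which GCATGCGC is preceded by GC (part of the count of 12), which makes it a palindrome, and which had log2 ratios between -1.03 and -1.001. Of these, COX18 lay under the filter, with 8 IP and 27 input reads. Its ratio without the added 1 RPKM was 0.140, so its log2 ratio depends on that addition. ATP5ME, with the motif and the highest log2 ratio on RPKM + 1, and COX7C, with the lowest log2 ratio on that scale and no NRF1 or ETS match in these bases, are shown beside them. Capitals mark NRF1 and ETS matches, and all runs read 5′ to 3′ on the strand of the gene. SDHD lies at chr11:112086753-112086872 (plus strand), COX17 at chr3:119677407-119677526 (minus), ATP5F1C at chr10:7788057-7788176 (plus), COX18 at chr4:73069717-73069836 (minus), ATP5ME at chr4:674277-674396 (minus) and COX7C at chr5:86617821-86617940 (plus), all GRCh38.p14.
SDHD: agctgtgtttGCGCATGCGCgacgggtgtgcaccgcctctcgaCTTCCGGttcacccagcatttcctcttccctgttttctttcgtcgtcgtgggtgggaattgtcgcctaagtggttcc
COX17: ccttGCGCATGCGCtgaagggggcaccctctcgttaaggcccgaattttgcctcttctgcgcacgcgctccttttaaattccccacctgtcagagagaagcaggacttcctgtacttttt
ATP5F1C: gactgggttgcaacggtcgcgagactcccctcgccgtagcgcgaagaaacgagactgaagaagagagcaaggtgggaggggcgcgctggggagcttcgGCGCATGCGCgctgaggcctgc
COX18: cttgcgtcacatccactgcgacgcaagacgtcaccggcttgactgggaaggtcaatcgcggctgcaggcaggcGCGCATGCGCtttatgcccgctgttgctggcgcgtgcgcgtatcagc
ATP5ME: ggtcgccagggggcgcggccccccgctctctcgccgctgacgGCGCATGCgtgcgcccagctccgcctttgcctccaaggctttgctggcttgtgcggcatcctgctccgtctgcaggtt
COX7C: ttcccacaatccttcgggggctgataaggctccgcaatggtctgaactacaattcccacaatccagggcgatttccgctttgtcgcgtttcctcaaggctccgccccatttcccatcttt

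The lowest and the highest gene of complex II were both assembly factors. The 8 genes of this complex had a median log2 ratio of -1.01 as deposited and 0.11 after scaling to the same RPKM sum, in each case below the median of all genes. SDHA, the flavoprotein that oxidises succinate, stood at 11.0 RPKM in the IP and 8.37 in the input, a ratio of 1.32 (1.12 to 1.56). SDHB, the iron-sulfur subunit that passes the electrons on, stood at 5.47 and 12.1 RPKM, a ratio of 0.454 (0.326 to 0.631). The catalytic partners thus had intervals on opposite sides of 1, also from halved reads. Part of the SDHA reads may belong to AC021087.5, which shares 1892 of its 8765 exon bases on the same strand and was at 28.8 and 27.0 RPKM.

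The membrane anchors of complex II were covered by few reads. SDHC was at 3.79 RPKM in the IP and 4.17 in the input, a ratio of 0.911 whose interval (0.623 to 1.35) includes 1. SDHD was at 2.31 and 5.67 RPKM, a ratio of 0.407 (0.257 to 0.644). These intervals overlap at their ends, with 83 and 43 reads for SDHC and 38 and 44 for SDHD. Overlap alone does not settle whether the anchors differ, and the difference was not tested. Among the assembly factors, SDHAF2, which helps attach the flavin to SDHA, was at 6.90 and 15.3 RPKM (ratio 0.452, 0.320 to 0.638). SDHAF3, which acts in the maturation of SDHB, was at 2.27 and 9.02 RPKM from 16 and 30 reads, a ratio of 0.252 (0.128 to 0.476). SDHAF4, which binds SDHA during assembly, had 5 and 9 reads, and its interval of 0.0690 to 0.871 reached past 1 from halved reads. SDHAF1, an iron-sulfur factor for SDHB, was the highest gene of the complex at 5.73 and 1.92 RPKM. That ratio of 2.99 rests on 38 IP and 6 input reads, and its interval (1.25 to 8.65) includes 1 from halved reads.

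Complex III had the median nearest to 0 on the deposited scale, -0.27 (log2 ratio) over 10 genes and none at least 2-fold lower or higher; after scaling to the same RPKM sum the median was 0.94, again below that of all genes. UQCRC1, the first of the matrix-facing core proteins, had 39.6 RPKM in the IP and 22.7 in the input, a ratio of 1.75 (1.49 to 2.05). Its partner UQCRC2 had 3.03 and 5.25 RPKM, a ratio of 0.577 (0.413 to 0.810). The core proteins, which form a pair in the assembled complex, thus had mRNAs with intervals on either side of 1, also from halved reads. CYC1, cytochrome c1, had 15.3 and 9.89 RPKM, a ratio of 1.55 (1.13 to 2.14) that included 1 from halved reads. For UQCRFS1, the Rieske iron-sulfur protein, the values were 5.60 and 7.22 RPKM and the interval of the ratio (0.561 to 1.08) includes 1.

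The small subunits of complex III lay mostly lower. UQCRQ was at 24.2 RPKM in the IP and 47.3 in the input (ratio 0.512, 0.435 to 0.602), and UQCRB, the ubiquinone-binding protein, at 11.3 and 19.4 RPKM (ratio 0.584, 0.527 to 0.647). UQCRH, the hinge protein next to cytochrome c1, was by far the most abundant gene of the complex at 105 and 123 RPKM, a ratio of 0.855 (0.762 to 0.960) whose interval reached 1 from halved reads. UQCR10, at 15.7 and 18.4 RPKM, and UQCR11, at 13.9 and 17.5 RPKM, had intervals that include 1. UQCR11 shares 235 exon bases with AC005943.1, which was at 187 and 63.1 RPKM. UQCRHL, an intronless copy of UQCRH, was at 12.0 and 7.58 RPKM, a ratio of 1.58 (1.13 to 2.25) whose interval includes 1 from halved reads. Since the copies are nearly identical in sequence, reads can be split between UQCRH and UQCRHL in counting, and both values are uncertain. CYCS, the mobile carrier cytochrome c between complexes III and IV, had 61.1 RPKM in the IP and 124 in the input. From 2087 and 1993 reads its ratio of 0.494 (0.464 to 0.526) is among the most precise of the 59.

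**Figure D2:**
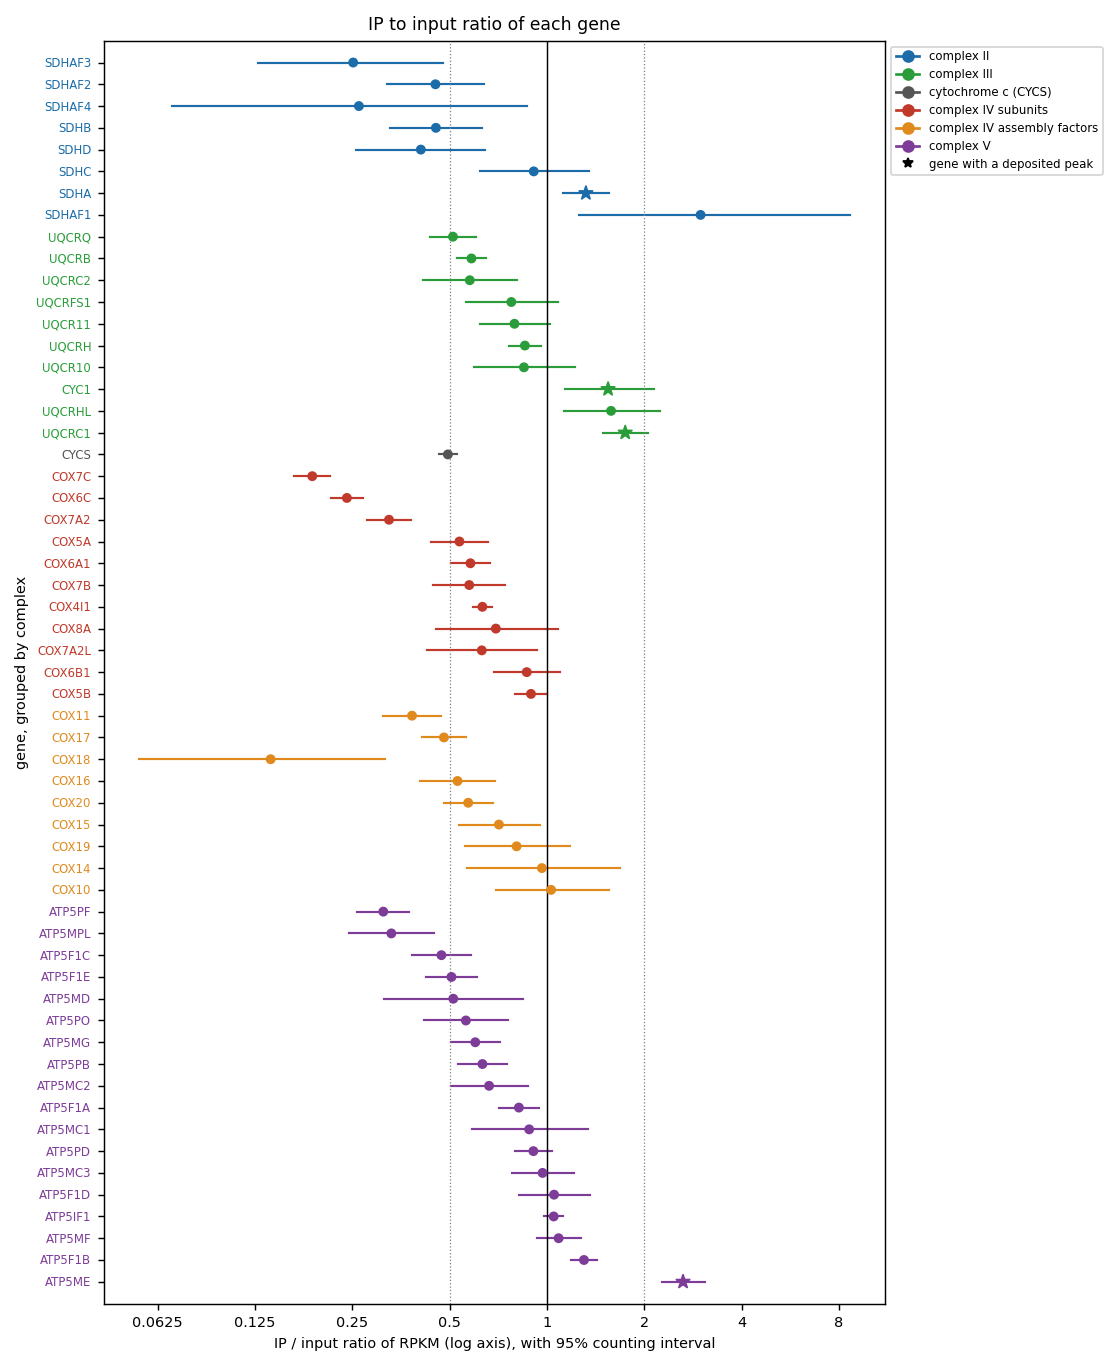
IP to input ratio of RPKM (log axis) of the 57 genes with reads in both libraries, with exact 95% counting intervals; stars mark the 4 genes with a deposited peak and dotted lines 2-fold. COX6A2 and ATP5MGL, at 0 reads in one library, are not drawn. The 11 complex IV subunits drawn all lie left of 1 as deposited, from COX7C at 0.188 to COX5B at 0.893, though 8 have a log2 difference above 0 after scaling to the same RPKM sum.

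The complex IV subunits all lay below the typical gene: each of the 12 had a log2 ratio below that of the median gene as deposited. Their median was -0.75, or 0.45 after scaling to the same RPKM sum, where 4 of the 12 were below 0. The lowest with reads in both libraries were small membrane-spanning subunits. COX7C had 28.1 RPKM in the IP and 149 in the input, from 326 and 818 reads, a ratio of 0.188 (0.165 to 0.214). COX6C had 28.6 and 119 RPKM, a ratio of 0.241 (0.215 to 0.270), and COX7A2, the isoform of liver and most other tissues, had 24.2 and 74.4 RPKM, a ratio of 0.325 (0.277 to 0.380). In the input COX7C was the most abundant gene of the complex, whereas in the IP COX5B, COX4I1 and COX6A1 stood above these 3. The exons of COX7C include SNORD138, a small nucleolar RNA of 79 bases, which was at 4.29 RPKM in the IP and listed at 0 in the input and so adds little to its reads.

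The other abundant subunits formed a middle group. COX4I1, an early-assembling subunit, had 65.9 and 104 RPKM with 1873 and 1399 reads, a ratio of 0.632 (0.589 to 0.677). COX6A1 was at 59.0 and 102 RPKM (ratio 0.580, 0.505 to 0.666), COX5A at 27.6 and 51.5 RPKM (ratio 0.536, 0.439 to 0.655) and COX7B at 7.79 and 13.5 RPKM (ratio 0.575, 0.446 to 0.743). The intervals of these 4 genes overlap each other and none of them overlaps that of COX7C, COX6C or COX7A2, although from halved reads COX5A and COX7B reach COX7A2. COX5B, the zinc-binding subunit on the matrix side, was the highest at 109 and 122 RPKM, a ratio of 0.893 (0.799 to 0.999) whose interval includes 1 from halved reads. COX6B1, which faces the intermembrane space, was at 26.4 and 30.5 RPKM, with an interval from 0.688 to 1.10. COX5A and COX5B, which lie together in the assembled enzyme, had intervals that do not overlap.

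Isoforms of complex IV subunits could be compared for 2 subunits. COX6A2, the muscle isoform, had 0 IP reads and 4 input reads beside 466 and 379 of COX6A1; against a floor of 3 reads in the IP it was at least 2.83-fold lower. That bound leaves out the counting error of the 4 input reads: the exact interval of the ratio ran from 0 to 0.715, and from halved reads it includes 1. The medians of the complex IV subunits and of all 57 genes are the same with COX6A2 set at that bound. COX7A2L, a relative of COX7A2 that joins complexes III and IV into supercomplexes, was at 1.94 RPKM in the IP and 3.08 in the input, a ratio of 0.629 (0.426 to 0.934), which from halved reads includes 1. Its interval lies above that of COX7A2, and from halved reads the intervals overlap. COX8A, a small membrane subunit, was at 19.2 and 27.6 RPKM with an interval (0.452 to 1.08) that includes 1. The other isoforms COX4I2, COX6B2, COX7A1, COX7B2 and COX8C were not among the listed genes under these symbols.

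The assembly factors of complex IV also lay below the typical gene. Of 9 genes 8 were measured, with a median log2 ratio of -0.58 (0.56 after scaling to the same RPKM sum). As deposited, all 8 were below the median of all genes and 2 were at least 2-fold lower. Both of these deliver copper. COX11, which inserts copper into the mitochondrially encoded COX1 subunit, was at 4.20 and 11.0 RPKM (ratio 0.383, 0.312 to 0.469), and COX17, the copper chaperone of the intermembrane space, was at 26.3 and 54.8 RPKM (ratio 0.480, 0.411 to 0.561). The third copper factor, COX19, was at 2.07 and 2.57 RPKM with an interval (0.558 to 1.18) that includes 1. COX18, which inserts the tail of COX2 into the membrane, lay under the filter at 0.194 and 1.39 RPKM. Its 8 IP and 27 input reads gave a ratio of 0.140 (0.0549 to 0.316), the lowest of the genes with reads in both libraries, with an interval that overlaps that of COX7C.

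Factors of haem synthesis and of COX1 and COX2 maturation covered the rest of the range. COX10, the haem O synthase, had 2.08 RPKM in the IP and 2.02 in the input (ratio 1.03, 0.694 to 1.56), and COX15, the haem A synthase that follows it, had 4.06 and 5.72 RPKM (ratio 0.710, 0.534 to 0.949, reaching past 1 from halved reads). COX14, a factor for COX1, had 7.87 and 8.15 RPKM from 45 and 22 reads, with an interval from 0.567 to 1.69. For the COX2 factors COX16 and COX20 the values were 10.6 and 20.1 RPKM (ratio 0.529, 0.404 to 0.693) and 10.7 and 18.7 RPKM (ratio 0.571, 0.479 to 0.681). COX16 shares 725 exon bases with the readthrough gene SYNJ2BP-COX16. COX20 lies opposite HNRNPU over 3502 of its 4570 exon bases, and HNRNPU had a log2 ratio of 0.57.

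Complex V held ATP5ME, the gene with the highest IP level (RPKM) and the highest log2 ratio on RPKM + 1 of the 57, and 16 of its 18 measured genes lay below the median of all genes as deposited, 13 with equal RPKM sums. Their median log2 ratio was -0.39 (0.77 after that scaling), with 3 genes at least 2-fold lower and 1 higher. In the F1 head, ATP5F1B, the catalytic beta subunit, had 132 RPKM in the IP and 101 in the input, a ratio of 1.30 (1.19 to 1.43). ATP5F1A, the alpha subunit that alternates with beta in the ring, had 8.50 and 10.4 RPKM, a ratio of 0.819 (0.712 to 0.944), which from halved reads includes 1. Their intervals do not overlap. The merged exons of ATP5F1A span 10908 bases against 2238 for ATP5F1B, which lowers its RPKM but cancels in the ratio. In the central stalk, ATP5F1C (gamma) was at 13.2 and 27.9 RPKM (ratio 0.472, 0.381 to 0.584), ATP5F1E (epsilon) at 8.71 and 17.2 RPKM (ratio 0.507, 0.424 to 0.606) and ATP5F1D (delta) at 15.3 and 14.5 RPKM (ratio 1.05, 0.818 to 1.36).

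The peripheral stalk, which holds the head against the turning rotor, had 4 of 4 genes with a log2 ratio below 0 as deposited. ATP5PF, coupling factor 6, was at 16.0 and 51.4 RPKM, a ratio of 0.312 (0.259 to 0.375) and the lowest of complex V. ATP5PO, the oligomycin sensitivity subunit, was at 5.35 and 9.52 RPKM (ratio 0.562, 0.416 to 0.760), ATP5PB at 16.2 and 25.7 RPKM (ratio 0.632, 0.530 to 0.755) and ATP5PD at 36.6 and 40.3 RPKM (ratio 0.908, 0.799 to 1.03). The interval of ATP5PF overlaps none of the other 3, except that of ATP5PO from halved reads. With scaling to the same RPKM sum the median of all genes is 1.24, and single ratios are to be read against that shift.

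Subunit c, which forms the rotor ring, is encoded by 3 genes whose mature proteins are the same and which differ in the targeting peptide. ATP5MC1 was at 4.60 RPKM in the IP and 5.22 in the input (ratio 0.881, 0.586 to 1.34), ATP5MC2 at 5.73 and 8.65 RPKM (ratio 0.662, 0.505 to 0.872) and ATP5MC3 at 6.48 and 6.68 RPKM (ratio 0.970, 0.781 to 1.21). The 3 intervals overlap, which alone does not settle whether the paralogs differ, and the differences were not tested.

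The accessory membrane subunits ranged widely. ATP5ME, subunit e, which helps ATP synthases pair up and bend the membrane, was at 209 RPKM in the IP and 79.1 in the input from 1146 and 205 reads. Its ratio of 2.64 (2.27 to 3.07) was the only interval of the 57 wholly above 2-fold, a count that was not made over all genes. ATP5ME lies opposite MYL5 over 571 of its 932 exon bases, and MYL5 was at 25.9 and 12.9 RPKM. Whether counting used strand is not stated, so MYL5 reads may be part of this ratio, which was not tested. ATP5MPL, now named ATP5MJ, was at 3.82 and 11.6 RPKM (ratio 0.330, 0.244 to 0.446). ATP5MG, subunit g, which works with subunit e, was at 17.0 and 28.4 RPKM, a ratio of 0.600 (0.504 to 0.716), and ATP5MF, subunit f, at 42.2 and 38.8 RPKM with an interval from 0.929 to 1.27. ATP5MD, now named ATP5MK, had 37 and 34 reads and an interval of 0.313 to 0.843, which from halved reads includes 1. The subunit g copy ATP5MGL had 2 IP and 0 input reads. ATP5IF1, the inhibitor that stops ATP synthase from running backwards, was at 206 and 196 RPKM from 2701 and 1214 reads, a ratio of 1.05 (0.980 to 1.12), close to the median of all genes.

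Few of these genes held any of the 7643 deposited IP peaks. Each peak was assigned by exonic bases on its strand to the gene that it covered most, and 4 of the 59 carried 1 peak each, where 12.0% of all listed genes and 21.5% of measured genes had at least 1. The 4 were SDHA, UQCRC1, CYC1 and ATP5ME, which are among the 7 genes whose counting interval lay above 1; none of the other 50 measured genes had a peak. Peaks and ratios come from the same libraries, and over all genes 45.9% of those at least 2-fold higher and 0.431% of those at least 2-fold lower had a peak. Ratios, peaks and intervals are thus not independent of each other.

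The 4 peaks lay in different parts of their mRNAs. MYL5 lies opposite 571 of the 932 exon bases of ATP5ME. In ATP5ME the peak (chromosome 4, 672435 to 673928, minus strand) covered 620 of 932 exon bases and ran to the 3′ end, and the authors' deposited table gives it a fold of 2.20, a p-value of 2.12e-13 and a false discovery rate of 1.12e-11. In SDHA it lay on chromosome 5, 226013 to 228250, over exon blocks 6 and 7 of 16, between 15.7% and 23.4% of the exon length and with 101 bases shared with AC021087.5, with a fold of 2.38 and a false discovery rate of 0.0265 in the authors' deposited table. The UQCRC1 peak (chromosome 3, 48600145 to 48600737, minus strand) covered 151 exon bases in blocks 8 to 10 of 11, and the CYC1 peak (chromosome 8, 144097309 to 144097409) 101 bases within the last block. The authors' deposited table gives these a fold of 2.05 and 2.28 and a false discovery rate of 0.0695 for both, so that 2 of the 4 genes had a peak at a rate of at most 0.05. Coordinates are as deposited; no source used here gives their build, and the spans of all 57 genes found in RefSeq's GRCh38.p14 table overlapped those in that table.

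**Figure D3:**
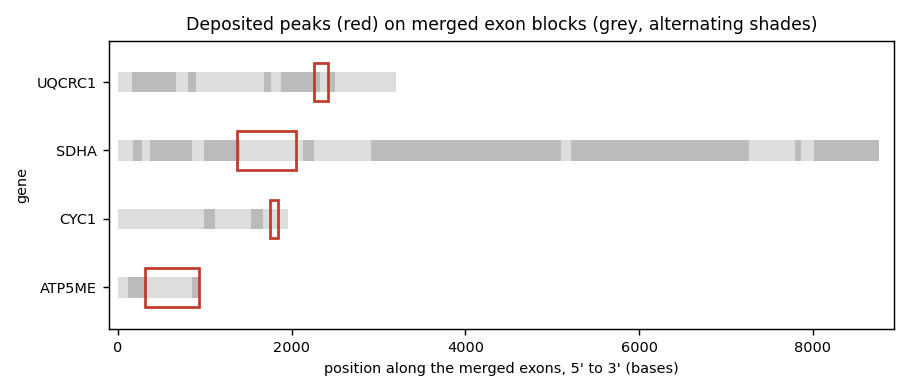
The 4 deposited peaks (red frames) along the merged exons of ATP5ME, CYC1, SDHA and UQCRC1, in bases from the 5′ end; alternating greys are merged exon blocks. The frame of ATP5ME spans 620 of 932 bases, whereas that of CYC1 covers 101 bases within the last of 5 blocks.

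Ratios were also compared at like length, since genes with short exons were low across the table. Across the 57 genes the log2 ratio and the merged exon length had a Spearman rho of 0.07, and across 9853 protein-coding genes 0.21; both are across genes of the same libraries, which are not independent replicates. Short genes were low in general: protein-coding genes under 1000 exon bases had a median log2 ratio of -0.36, and the 6 genes described here in that range also had a median of -0.36. From 1000 to under 2000 bases the medians were -0.86 for 13 genes described here and -0.0075 for all protein-coding genes, from 2000 to under 4000 bases -0.58 (24 genes) and 0.07, and at 4000 bases and more -0.55 (14 genes) and 0.24. The medians thus coincided under 1000 bases and lay apart above. The NDUF genes of complex I, described below, also lay below all protein-coding genes in each range. From the shortest range to the longest their medians were -0.59, -0.21, -0.61 and -0.39. By mean level, the 18 genes described here between 20 and 100 RPKM had a median of -0.83, and all protein-coding genes there 0.24. The 5 genes described here at 100 RPKM or more had 0.07 against 0.30. Merged exon length counts all annotated isoforms and exceeds that of the mature mRNA, as for UQCRB with 12600 bases. These form 1 block over the whole span of UQCRB, so any reads from its introns would be counted in its ratio, and their part was not tested.

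**Figure D4:**
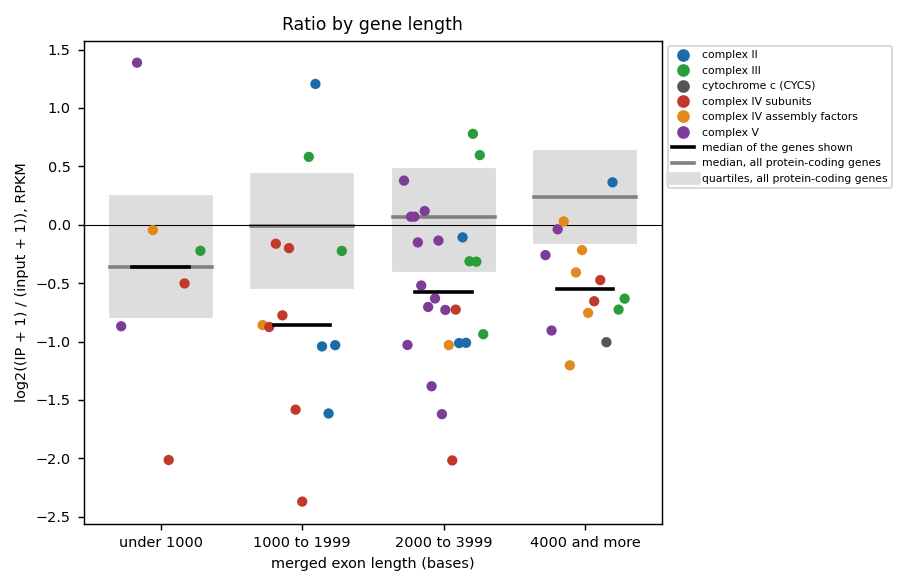
Log2((IP + 1)/(input + 1)) on RPKM by merged exon length for the 57 measured genes (points, coloured by complex; black bar, median), with the median and quartiles of all protein-coding genes in each range (grey). The black and grey bars coincide at -0.36 under 1000 bases and lie apart in the 3 longer ranges on the deposited scale.

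Overlapping genes bear on some of these values. Of the 59 genes, 16 share exon bases with another listed gene on the same strand, 18 lie opposite exons of a gene on the other strand, and 29 do neither. The 27 measured genes of the last kind had a median log2 ratio of -0.32, against -0.63 for all 57 and 0.14 for all genes on the deposited scale. The 0.14 includes genes that overlap others, and a median over all genes without overlap was not computed. The subset of 27 was chosen after seeing the data. The kit marks strand, but no source used here says whether counting used it, so reads of opposite genes cannot be told apart. COX6C lies opposite AC105328.1 over 320 bases, with a log2 ratio of -2.02 beside -2.41. ATP5PF lies opposite GABPA over 413 bases (-1.62 beside -1.53), UQCRQ opposite GDF9 over 255 (-0.94 beside -1.13) and ATP5ME opposite MYL5 over 571 of its 932 bases (1.39 beside 0.96). Among genes without any such overlap are COX7A2, CYCS, ATP5F1B and UQCRC1.

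Other genes of mitochondrial energy metabolism were compared by lists. Of 38 complex I genes 37 were measured, with a median log2 ratio of -0.42, 8 at least 2-fold lower and none higher, from NDUFB1 at -2.14 to NDUFV1 at 0.66. NDUFA4, named for complex I but now counted as a subunit of complex IV, was at 4.46 and 13.3 RPKM, a ratio of 0.335 (0.253 to 0.442), within the range of the complex IV subunits above. The 26 measured assembly factors of complexes III to V with other names had a median of -0.21, from COA6 at -1.49 to TACO1 at 1.01, with 2 genes at least 2-fold lower and 1 higher. The 14 enzymes of the tricarboxylic acid cycle, which feeds complex II and complex I, had a median of -0.06 and none beyond 2-fold, with SUCLG1 lowest at -0.53. Regulators of nuclear respiratory genes (9 of 11 measured, median -0.05) ran from GABPA, at 0.288 times its input RPKM (0.223 to 0.370), to YY1, at 3.89 times (3.35 to 4.54). All these medians lay below the 0.14 of all measured genes on the deposited scale, and those of complexes II (-1.01) and IV (-0.74, subunits and factors together) lay lowest.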

How the data were processed

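RNA of 1 IP and 1 input library of Huh-7 cells was sequenced with a stranded mRNA kit and molecular identifiers of 8 random bases, per the labels' protocols and design text. The submitters' processing notes name the trimmer Trimmomatic and the aligner STAR (2.5.3a). The counter, strand setting, genome build and peak caller are not stated in any source used here. The authors deposited RPKM values per gene, with merged exons and their length, and a peak table with a linear fold (ratio), a p-value and a false discovery rate per peak, and a score that was not used. The 2 sample columns were matched by name, and 0 columns of other samples were found. Multiplying RPKM by length and solving for the value of 1 read gave whole reads within 0.01 for 100% of values (5897293 in the IP and 2782045 in the input), from which the exact 95% intervals of ratios were computed; reads in pairs make these too narrow. Reads of protein-coding genes were 90.5% of the IP and 69.1% of the input, so other scalings were run.

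The pseudocount was 1 RPKM, the filter a mean of 1 RPKM and the call a 2-fold difference on that scale. No test across genes was run, as each group has 1 library; the interval routine was tested on simulated data. A peak went to the gene with most exonic bases on its strand, with at least 1 base. Named are the extremes of each complex, genes with a peak, paralogs and key subunits, and nearly all other members are given as well. Members and lists were chosen with earlier results of these data known. Promoter and motif tables were RefSeq's (GRCh38.p14). Computation used scipy 1.17.1, pandas 2.3.3 and numpy 2.4.6 under Python 3.11.15, with matplotlib 3.10.9 for figures. Alternatives covered pseudocount, filter, scaling, fold, counting interval, overlapping genes and peak threshold.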

Additional observations from a re-analysis of the deposited data

How the results depend on the processing

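With 1 library per group these values have no replicate check, and depth limits genes with few reads, such as SDHAF1, SDHAF4 and COX6A2. Scaling both libraries to the same RPKM sum reversed the sign of the medians of the 57 genes (0.58), the complex IV subunits (0.45), its assembly factors (0.56), complex II (0.11), complex III (0.94) and complex V (0.77). Each stayed below the median of all genes, 1.24, a place that can shift only through the added 1 RPKM. That scaling gave 2 genes at least 2-fold lower and 17 higher, and among all genes past 2-fold the share that was higher was 95.04% against 57.9% as deposited, 44.6% centred on the median and 29.5% scaled to protein-coding reads. Scaling to protein-coding reads gave 28 lower and 1 higher, with medians of -1.37 for complex II, -0.64 for complex III and -0.95 for complex IV assembly factors. The complex II median was -1.13 with a pseudocount of 0.1 RPKM and -1.15 centred on all genes. Of the 15 lower and 2 higher genes, 7 and 1 had intervals wholly beyond 2-fold, and 4 and 1 from halved reads. The same counts were not made over all genes, so these numbers describe single genes and do not set the 57 apart. A fold of 1.5 gave 29 and 4 of the 57, and 2405 and 3587 of all 14057 genes. A mean of at least 5 RPKM kept 46 of the 57, with 12 past 2-fold downwards and 1 upwards. In the whole table that filter kept 6427 genes, with 545 past 2-fold downwards and 816 upwards. At least 100 reads in both libraries together kept 49 of the 57, with 11 past 2-fold downwards and 1 upwards. The read filter was not applied to all genes, so the counts from it have no comparison. The 27 measured genes whose exons overlap no other listed gene had a median of -0.32. Peaks with a false discovery rate of at most 0.05 lay in 2 of the 59 genes and in 2085 of all 25556 listed genes. The alternatives on halved reads, on at least 100 reads and on overlapping genes were chosen after seeing the data. Placing peaks by a name in the peak table was not run, because that table was used here by position only. No paired analysis was possible because each group has 1 library.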

Other observations

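Opposite-strand partners of these genes were read as a further description. GABPA, a regulator of nuclear respiratory genes, and ATP5PF lie head to head with 413 shared exon bases, and both were low in the IP, at 3.22 RPKM against 11.2 in the input for GABPA and 16.0 against 51.4 for ATP5PF. MYL5, a myosin light chain gene opposite ATP5ME, was at 25.9 and 12.9 RPKM, and ATP5ME at 209 and 79.1 RPKM. TUBB1, a tubulin gene opposite ATP5F1E over 1180 bases, was at 0.204 and 0.649 RPKM, far below ATP5F1E at 8.71 and 17.2 RPKM. Whether shared reads contribute to these pairs was not tested.

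Transcription factors behind mitochondrial gene expression also spread widely. TFB2M, a mitochondrial transcription factor, was at 2.85 and 8.46 RPKM in the IP and the input, a ratio of 0.337 (0.204 to 0.551) from 30 and 42 reads. TFAM, which packages mitochondrial DNA, was at 8.51 and 14.6 RPKM (ratio 0.584, 0.486 to 0.703). PPRC1, a coactivator of nuclear respiratory genes, was at 8.09 and 5.84 RPKM (ratio 1.39, 1.10 to 1.76), and from halved reads its interval includes 1.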
